A study of Mus musculus with 60 samples.

Results

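A set of 6 genes of mouse embryonic stem cells (mESC), Sik1, Kdr, Enox1, Galnt18, Slc39a14 and Ptpru, were followed through every depletion of the cohesin subunit RAD21 and of CTCF for which nascent RNA was deposited. They were found by matching the transcript identifiers of the count table to gene symbols in the GENCODE annotation, which gave 1 row for each gene and 6 of 27665 rows in all. They were chosen by measured values, taken here to be their changes after RAD21 depletion in mESC, so those changes are given as a description, with no test. Tests are given for contrasts taken as not used by the choice, which are in the CTCF lines and in neural progenitor cells (NPC).

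Nascent RNA was labelled for 20 min with 0.5 mM 5-ethynyl uridine (5-EU), captured and sequenced (EU-seq), in 60 libraries of 20 groups. The mESC lines are of E14 cells and were held in medium with leukaemia inhibitory factor and 2 kinase inhibitors. RAD21-AID mESC carry an auxin-inducible degron on endogenous Rad21 and were given 500 µM indole-3-acetic acid (IAA) for 4 h or kept as controls, in an initial experiment (2 libraries a group) and in an additional one (12 a group). NPC were differentiated from RAD21-AID mESC and given 500 µM IAA for 1, 2 or 4 h or 10 µM of the CBP/p300 inhibitor A-485 for 1 h, with 2 libraries a group. CTCF-AID mESC carry the degron on CTCF and were given 500 µM IAA for 6 h, with 2 unstranded and 2 stranded libraries a group. CTCF-YF-AA mESC carry, on both Ctcf alleles, a tag for degradation by dTAG13 and alanines in place of a tyrosine and a phenylalanine, and were given dTAG13 (200 nM in the labels) for 2 or 4 h. In bTAG-ΔN-CTCF/dTAG-CTCF-ΔC mESC 1 allele lacks the N terminus and answers to AGB1, and the other lacks the C terminus and answers to dTAG13. These cells were given 100 nM AGB1, dTAG13 (100 nM in the labels but 200 nM in the names of the count columns) or both for 2 h, and both lines had 2 libraries a group. Controls, labelled only as such, were given the solvent DMSO by the treatment text. The control cells of each line carry the same tags and truncations as the treated ones. The RAD21-AID and CTCF-AID lines came from other laboratories, and the other CTCF lines were grown from picked colonies. The study calls its libraries biological replicates without saying how they were kept apart, and a p-value measures the spread between them.

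Cohesin is a ring-shaped complex, with RAD21 as the subunit that closes the ring, that extrudes loops of chromatin and so changes which distal enhancers and promoters meet. CTCF is a zinc finger protein that binds DNA and halts cohesin when its N terminus faces the approaching complex. Auxin or a tag ligand removes the tagged protein within hours, and short 5-EU labelling reads transcription rather than stored mRNA.

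The genes have unlike roles. Sik1 encodes a salt-inducible kinase that restrains the coactivators of CREB. Kdr encodes VEGF receptor 2, the main receptor of the vascular growth factor VEGF-A and a marker of early mesoderm. Enox1 encodes an ecto-NOX disulfide-thiol exchanger of the cell surface. Galnt18 belongs to the polypeptide GalNAc-transferases, the family that starts mucin-type O-glycosylation. Slc39a14 encodes ZIP14, a transporter that brings zinc, manganese and iron into cells. Ptpru encodes a receptor tyrosine phosphatase of the R2B group, which acts at cell contacts.

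The genes lie on 5 chromosomes, and their bodies span a wide range of lengths. In GRCm38 the counted stretches were chr17:31844250-31855804 (minus strand, 11.6 kb) for Sik1, chr5:75932827-75978458 (minus, 45.6 kb) for Kdr and chr14:77156763-77721407 (plus, 565 kb) for Enox1. Those of the others were chr7:111471661-111779977 (minus, 308 kb) for Galnt18, chr14:70303469-70351425 (minus, 48.0 kb) for Slc39a14 and chr4:131768457-131838288 (minus, 69.8 kb) for Ptpru. Exons made up 39.1% of the Sik1 stretch and 0.556% of the Enox1 stretch, so the long genes were read almost wholly in introns. No other counted transcript overlapped any of them (0 found).

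Promoter sequences were at hand for 3 of the 6 genes, from RefSeq in build GRCm38.p6, each with 250 bases before and 50 after the start site. They are shown because of the ranks of these genes after RAD21 depletion in mESC. Kdr was among the lowest genes and Ptpru among the highest in both experiments, and Enox1 was among the lowest in the additional one only. They lie at chr5:75978406-75978705 (minus strand), chr14:77156513-77156812 (plus) and chr4:131838229-131838528 (minus), and are written 5′ to 3′ with the motifs found in capitals.
Kdr: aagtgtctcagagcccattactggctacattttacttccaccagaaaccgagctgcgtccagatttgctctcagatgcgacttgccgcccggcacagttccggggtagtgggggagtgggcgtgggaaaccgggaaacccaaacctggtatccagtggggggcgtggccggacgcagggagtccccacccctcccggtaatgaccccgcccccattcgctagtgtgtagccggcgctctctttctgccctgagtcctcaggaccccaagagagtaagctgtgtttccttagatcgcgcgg
Enox1: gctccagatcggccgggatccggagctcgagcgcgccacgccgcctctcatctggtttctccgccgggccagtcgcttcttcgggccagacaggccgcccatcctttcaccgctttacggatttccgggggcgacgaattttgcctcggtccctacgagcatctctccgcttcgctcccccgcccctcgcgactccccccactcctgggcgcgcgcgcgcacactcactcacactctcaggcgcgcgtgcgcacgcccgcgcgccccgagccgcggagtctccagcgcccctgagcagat
Ptpru: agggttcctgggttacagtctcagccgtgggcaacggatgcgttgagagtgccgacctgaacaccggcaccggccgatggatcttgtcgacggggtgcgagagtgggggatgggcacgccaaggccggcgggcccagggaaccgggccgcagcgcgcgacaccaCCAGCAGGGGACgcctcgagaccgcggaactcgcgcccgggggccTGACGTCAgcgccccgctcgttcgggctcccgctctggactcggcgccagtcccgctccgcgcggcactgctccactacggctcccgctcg
All 3 were rich in GC: 60.67% of bases in Kdr, 70.33% in Enox1 and 72.33% in Ptpru, against a median of 52.67% over 32851 promoters of the same length. They held 19, 42 and 40 CG dinucleotides, against a median of 7. A CTCF core written CCNNNAGNNGGC, searched on both strands, was in none of the 3 and in 8.609% of all promoters, and TATAAA was in none and in 13.62%. The cAMP response element TGACGTCA stood in the Ptpru promoter 41 bases before the start site, and 1.79% of promoters held it. With the next-to-last letter of the CTCF core free (CCNNNAGNNGNC), a form chosen after the sequence was seen, which covers every match of the core itself, Ptpru had a match 86 bases before the start site, as did 22.19% of promoters somewhere. A match is a run of letters and was not tested as a binding site.

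Levels are CPM, the reads in a gene body scaled to the library's size, after TMM scaling (a trimmed mean that sets libraries on 1 scale). Library totals ran from 4027449 to 21898781 counts with a median of 13579700.5. The summed levels of the marker lists went with the labelled cell types. In every mESC group all 12 of 12 pluripotency markers lay above 1 CPM, with sums per library from 3462 to 5866 CPM against 112 to 139 CPM in NPC, and Pou5f1 was at 0.435 CPM in NPC controls. Still, 8 of the 12 pluripotency markers lay above 1 CPM in each NPC group. In NPC 10 or 11 of 11 neural progenitor markers lay above 1 CPM, against 4 to 6 of 11 in the mESC groups. Their sums per library were 1110 to 1311 CPM in NPC and 65.1 to 131 CPM in mESC. Rad21 RNA averaged 239 CPM without and 246 CPM with IAA in initial mESC, and 268 and 263 CPM in additional mESC. The degron acts on the protein, so RNA does not check the depletion. In bulk RNA, fewer cells of a type and less RNA per cell cannot be told apart. The stranded CTCF-AID libraries numbered 2, control and IAA, differed from the others of their groups at more genes: 402 and 438 of 8965 genes lay at least 2-fold from the mean of the other 3, against 292 and 283 for the stranded libraries numbered 1 set against the unstranded mean. Over these genes their correlations with the other 3 ran from 0.924 to 0.975 (control) and from 0.915 to 0.968 (IAA), partly above the lowest among the other 3 (0.944 and 0.941). CTCF-AID results are therefore given with and without that pair. In all, 18 libraries have a treatment text that names triptolide although their titles do not, and they were grouped by title.

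After RAD21 depletion in the additional mESC experiment, 4 genes were lower in every library (Sik1, Kdr, Enox1 and Slc39a14) and 2 were higher (Galnt18 and Ptpru). In the initial experiment the same direction past 1.3-fold was seen for Sik1, Kdr and Ptpru. Enox1, Galnt18 and Slc39a14 differed there by 1.07- to 1.09-fold, less than 1 standard error on the log2 scale. For reference, 27.4% of 15732 genes were called lower and 31.0% higher in the additional experiment (edgeR's quasi-likelihood test, adjusted p under 0.05), and 5.23% and 3.40% of 15177 in the initial one. Since the genes were chosen on these contrasts, nothing is read from their counts.

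Sik1 was at 48.6 and 46.2 CPM in the initial controls and at 24.8 and 28.8 CPM after IAA. In the additional experiment its controls ran from 68.9 to 83.0 CPM (median 74.5) and its IAA libraries from 22.7 to 29.8 CPM (median 26.5). No IAA library reached a control library in either experiment. The log2 change was -0.81 (SE 0.10), 1.76-fold lower, in the initial experiment and -1.48 (SE 0.032), 2.78-fold lower, in the additional one. IAA libraries lay at much the same level in both, with means of 26.8 and 26.5 CPM, while the control mean was 1.57-fold higher in the additional experiment.

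Kdr was the faintest of the lower genes. The initial controls held 20 and 27 reads of it and the IAA libraries 9 and 9, which is 2.05 and 2.34 CPM against 0.899 and 0.837 CPM. In the additional experiment controls ran from 7.53 to 10.2 CPM (median 8.19) and IAA libraries from 1.06 to 1.76 CPM (median 1.48), again without overlap. It changed on the log2 scale by -1.33 (SE 0.43) and -2.50 (SE 0.085), or 2.51- and 5.68-fold lower. By size this placed Kdr 13th lowest of 15177 genes in the initial experiment and 3rd lowest of 15732 in the additional one. Of 12 markers of endothelium, where Kdr is best known, 6 lay above 1 CPM in the additional controls, with sums per library from 177 to 203 CPM and 201 to 233 CPM after IAA, and the defining marker Cdh5 averaged 0.106 CPM. Their part in the Kdr values was not tested.

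Enox1 separated the experiments most. Initial controls were at 6.97 and 10.4 CPM and IAA libraries at 7.39 and 8.55 CPM, with overlapping ranges. Additional controls lay between 113 and 139 CPM (median 129.5), 14.9-fold above the initial mean, and the IAA libraries fell between 19.5 and 25.9 CPM (median 24.2). Its log2 change was -0.13 (SE 0.19) in the initial experiment and -2.43 (SE 0.034), 5.40-fold lower, in the additional one, where it ranked 4th lowest. After IAA the additional libraries thus still held more Enox1 RNA than the initial controls.

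Slc39a14 behaved likewise on a smaller scale. It was at 15.3 and 18.2 CPM in initial controls and at 15.3 and 15.9 CPM after IAA, a log2 change of -0.10 (SE 0.14). In the additional experiment controls ran from 58.1 to 70.0 CPM (median 66.0) and IAA libraries from 23.97 to 31.2 CPM (median 28.3), a log2 change of -1.22 (SE 0.032) or 2.33-fold lower. Its control mean was 3.95-fold higher in the additional experiment.

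Galnt18 differed in the other direction. Its initial controls, at 17.1 and 18.1 CPM, lay 6.03-fold above the additional ones, which ran from 2.50 to 3.19 CPM (median 2.97). After IAA it was at 15.4 and 16.9 CPM in the initial experiment, a log2 change of -0.12 (SE 0.14). In the additional experiment IAA libraries ran from 5.48 to 8.47 CPM (median 6.63), a log2 change of 1.198 (SE 0.080) or 2.29-fold higher.

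Ptpru was higher in both experiments by a like amount. Initial controls were at 3.18 and 3.65 CPM and IAA libraries at 12.5 and 13.9 CPM. Additional controls ran from 1.64 to 3.58 CPM (median 2.43) and IAA libraries from 7.60 to 10.5 CPM (median 8.91). The groups did not overlap in either, and the log2 change was 1.95 (SE 0.21), 3.87-fold, and 1.84 (SE 0.089), 3.59-fold. It ranked 3rd highest of all genes tested in the initial experiment and 2nd highest in the additional one.

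**Figure D1:**
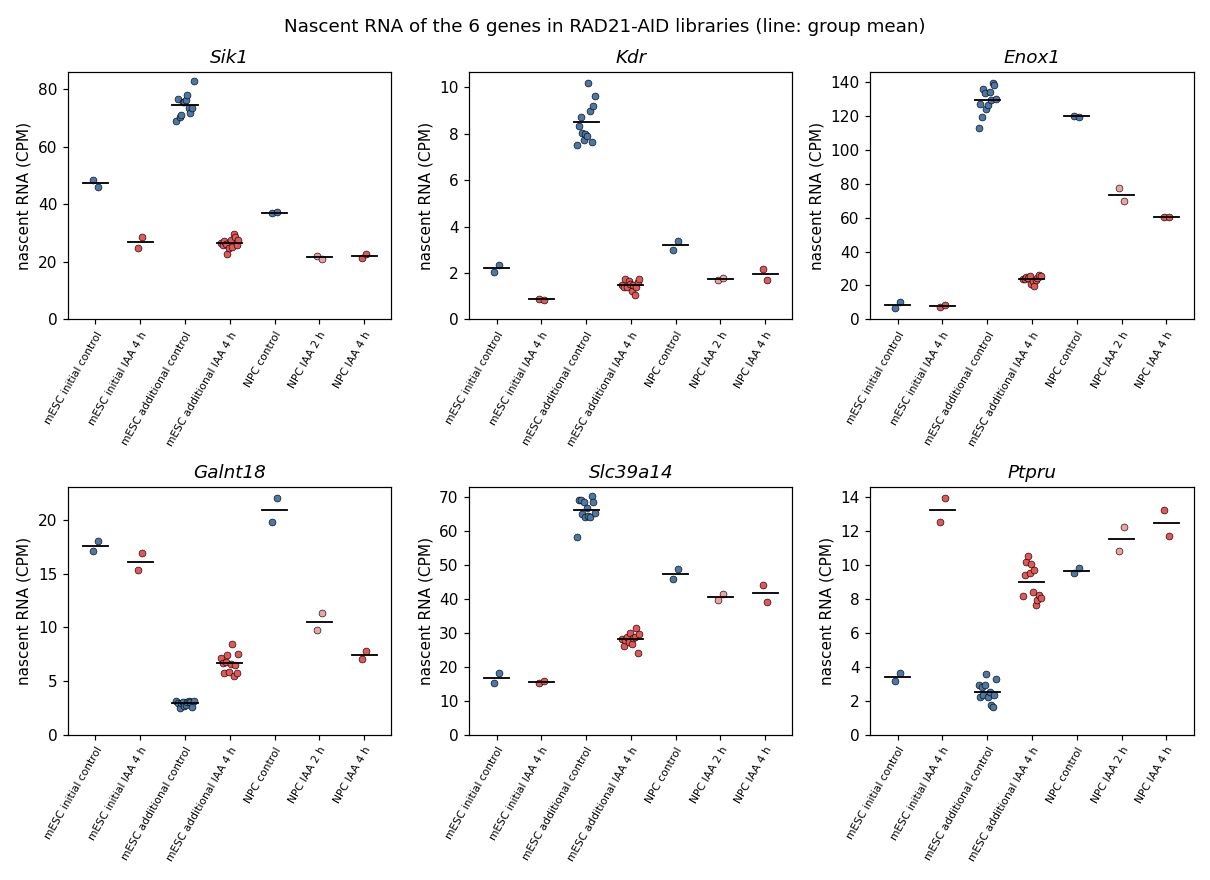
Nascent RNA of each gene (CPM, linear axis from 0) in each RAD21-AID library that was counted over the whole gene body, by group on the x axis. Points are libraries and lines are group means. Enox1 and Slc39a14 controls of the additional mESC experiment lie far above the initial controls, Galnt18 controls far below them, and Ptpru is higher after IAA in both.

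The difference in control levels between the experiments was not shared by most genes. Of 14909 genes tested in both experiments, 295 were over 2-fold higher and 651 over 2-fold lower in the additional controls, 6.35% in all (means of CPM + 0.5). Enox1, Kdr and Slc39a14 were among the first and Galnt18 among the second. Pluripotency markers moved with the experiment too: their sum was 4056 and 4123 CPM in the initial controls and 5004 to 5238 CPM in the additional ones. Nanog, at 312 and 600 CPM on average, and Pou5f1, at 80.1 and 178 CPM, differed by a larger factor than the sum of the 12. The pluripotency markers moved with IAA as well, with 9 of 12 lower and 2 higher in the additional experiment. There 27.4% of all genes were called lower and 31.0% higher. The summed markers after IAA were at 4335 to 4506 CPM. The part of these markers in the changes of the 6 genes was not tested. Cell stock, passage and sequencing run cannot be told apart from the experiment.

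Replicate by replicate, each additional IAA library was set against the control library of the same number, with the median change of expressed genes at 0. Sik1 was lower in all 12 of 12 pairs (log2 ratios -1.70 to -1.29, median -1.46), as were Kdr (-3.04 to -2.16, median -2.43), Enox1 (-2.77 to -2.21, median -2.42) and Slc39a14 (-1.48 to -1.02, median -1.16). Galnt18 was higher in 12 of 12 (0.79 to 1.48, median 1.22), as was Ptpru (1.32 to 2.27, median 1.90). Every one of these pairs passed 1.3-fold. Pair 1, which carries another batch label than the other 11, gave -1.35, -2.29, -2.21, -1.02, 1.18 and 1.495 in the same order of genes. The pairing in the additional experiment is by number only, since same-numbered libraries did not deviate together.

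The 2 initial pairs gave -0.96 and -0.67 for Sik1 on the log2 scale, -1.43 and -1.14 for Kdr, and 1.93 and 1.96 for Ptpru. Both pairs of these 3 genes passed 1.3-fold in the direction of the additional experiment, though for Sik1 and Kdr each initial ratio was smaller in size than any additional one. Enox1 gave -0.27 and 0.092, Galnt18 -0.15 and -0.085, and Slc39a14 -0.18 and 0.0088, none of which passed 1.3-fold. The difference between the experiments was not tested.

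**Figure D2:**
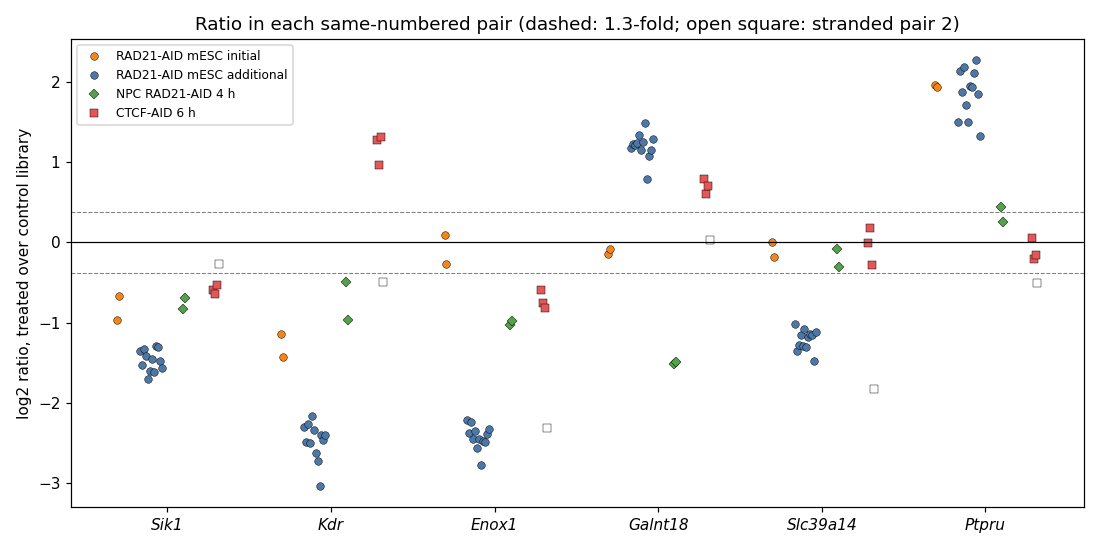
Log2 ratio of treated over control library in each same-numbered pair (y axis) for each gene (x axis), with dashed lines at 1.3-fold. The 12 additional mESC pairs of each gene lie beyond 1.3-fold on 1 side, the initial pairs do so for Sik1, Kdr and Ptpru, and the open square, stranded CTCF-AID pair 2, lies apart for Kdr, Enox1 and Slc39a14.

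Depletion of CTCF in CTCF-AID mESC addressed whether these genes answer to the loss of the protein that halts cohesin. Sik1 fell, and Kdr and Galnt18 lay higher and Enox1 lower in most pairs. With library type in the fit, 1 of 6 genes passed (Sik1), while 2.01% of 15611 genes were called lower and 1.57% higher; the median log2 change of the 6 was -0.24 against 0.017 for all genes tested. Same-numbered libraries deviated together in this line, and with the pairs as a block 4 of 6 genes passed, Sik1 and Enox1 lower and Kdr and Galnt18 higher, where 15.3% of genes were called lower and 13.9% higher. Without the stranded pair numbered 2 the same 4 genes passed, each in the same direction, with 8.52% of genes called lower and 10.9% higher.

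Sik1 was at 95.2 and 109.8 CPM in unstranded and 94.8 and 74.4 CPM in stranded controls, and at 61.0 and 67.6, and 64.3 and 61.9 CPM, after IAA. Every IAA library lay below every control library. The log2 change was -0.51 (SE 0.11, adjusted p = 0.0368, edgeR), with p = 0.000107 for the blocked fit and 0.000638 (log2 change -0.59) without the stranded pair 2. The call without the block rested on most of the libraries: leaving out any 1 of 7 of the 8 gave adjusted p from 0.0520 to 0.157, at log2 changes of -0.56 to -0.45.

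Kdr moved opposite to its RAD21 change in 3 of 4 pairs. Unstranded controls were at 7.56 and 8.57 CPM and stranded ones at 7.61 and 3.98 CPM. After IAA the values were 17.8, 16.1 and 18.6 CPM in the first 3 pairs and 2.83 CPM in stranded library 2. The log2 change of 1.01 (SE 0.50) had an adjusted p of 0.378 in the edgeR fit without the block, 0.0144 with it (0.87, SE 0.22), and 0.000269 without the stranded pair 2 (1.18, SE 0.13).

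Enox1 was at 6.79, 8.05 and 7.41 CPM in the first 3 controls and 44.2 CPM in stranded control 2, and at 4.33, 4.59, 4.07 and 8.87 CPM after IAA. It was lower in 4 of 4 pairs. Its log2 change over all 8 libraries was -1.35 (SE 0.54, edgeR adjusted p = 0.255), with p = 0.00189 under the block, and its size fell to -0.73 (SE 0.17, p = 0.0140) without the stranded pair 2, whose own log2 ratio was -2.31.

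Galnt18 was at 37.2, 36.8, 45.1 and 37.1 CPM in controls and 62.0, 53.999, 71.5 and 37.9 CPM after IAA. It was higher in 4 of 4 pairs, by a log2 ratio of only 0.033 in the stranded pair 2. The log2 change was 0.56 (SE 0.20, edgeR adjusted p = 0.219), 0.52 (SE 0.10, p = 0.00333) under the block, and 0.70 (SE 0.073, p = 0.000219) without that pair.

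Neither Slc39a14 nor Ptpru passed in any of these 3 fits. Slc39a14 went from 9.90, 8.28, 15.8 and 9.93 CPM to 9.54, 9.04, 12.7 and 2.77 CPM (log2 change -0.33, SE 0.43, edgeR adjusted p = 0.748 and 0.186 under the block). Ptpru went from 5.23, 4.99, 6.79 and 1.62 CPM to 5.28, 4.16, 5.93 and 1.13 CPM (log2 change -0.16, SE 0.55, edgeR adjusted p = 0.908 and 0.415 under the block).

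Degradation of the YF-AA form of CTCF lowered Ptpru and Sik1 and, at 4 h, raised Enox1. Of 5 genes tested at 2 h, 2 passed as lower and 0 as higher, while 2.70% of 14009 genes were called lower and 1.24% higher; Galnt18 had too few reads to be tested. At 4 h 2 of 6 passed as lower and 1 as higher, with 3.40% and 1.60% of 14280 genes called. The 2 times share their control libraries. The median log2 change of the tested genes was -0.0046 at 2 h and 0.016 at 4 h.

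Ptpru was at 6.40 and 6.24 CPM in the YF-AA controls, 2.07 and 2.64 CPM at 2 h and 0.980 and 1.48 CPM at 4 h, from 26 and 64 reads down to 7 and 14. All treated libraries lay below both controls. The log2 change was -1.36 (SE 0.40, edgeR adjusted p = 0.0223), 2.56-fold lower, at 2 h and -2.31 (SE 0.41, p = 4.97e-05), 4.95-fold lower, at 4 h. The direction is opposite to that after RAD21 depletion in mESC. The 2 h call was lost without any 1 of the 4 libraries (adjusted p from 0.117 to 0.161, edgeR). The 4 h call held without each of its 4 libraries in turn.

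Sik1 was at 98.7 and 112 CPM in the controls, 86.3 and 82.3 CPM at 2 h and 88.1 and 79.5 CPM at 4 h. Its log2 change was -0.33 (SE 0.087, edgeR adjusted p = 0.00464) at 2 h and -0.35 (SE 0.080, p = 0.00164) at 4 h. Without control 2, or without treated library 2, adjusted p was 0.337 and 0.213 at 2 h and 0.175 and 0.137 at 4 h. Enox1 was at 148 and 153 CPM, 157 and 169 CPM, and 206 and 189.8 CPM, a log2 change of 0.39 (SE 0.062, p = 1.13e-05, edgeR) or 1.31-fold higher at 4 h.

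Kdr lay at 30.0 and 30.5 CPM in the YF-AA controls, 24.1 and 34.0 CPM at 2 h and 31.6 and 29.1 CPM at 4 h, with overlapping groups. Slc39a14 was at 47.0 and 45.7, 45.9 and 53.6, and 46.9 and 47.3 CPM. Galnt18 was near the floor, at 2.95 and 1.66, 1.38 and 2.42, and 3.50 and 1.69 CPM. None of these changes passed.

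In the line with both truncated forms, Sik1 was the sole gene of the 6 to pass, and it did so where the form without the N terminus was removed. It was at 93.7 and 95.8 CPM in controls, 77.8 and 76.7 CPM after AGB1 (log2 change -0.29, SE 0.065, edgeR adjusted p = 0.00571), 91.1 and 87.5 CPM after dTAG13 (-0.089, p = 0.999), and 71.5 and 73.1 CPM after both (-0.40, SE 0.068, p = 8.08e-05). AGB1 and combined libraries lay below all controls, and so did the dTAG13 libraries, by less. Without AGB1 library 2 the AGB1 call was lost (adjusted p = 0.112). The 3 treatments share their controls, and whether they differ from each other was not tested. So 1 of 6 genes passed after AGB1, against 1.49% of genes called lower and 0.653% higher, 0 after dTAG13 (0.00734% lower and 0.0734% higher) and 1 after both (4.55% lower and 2.04% higher).

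Ptpru gave 1.87 and 3.17 CPM in those controls and 0.720 and 1.94 CPM after both agents, a log2 change of -1.004 (SE 0.42, edgeR adjusted p = 0.170). Without the second library of the combined treatment it was -1.81 with an adjusted p of 0.0181. The other tests of Kdr, Enox1, Galnt18, Slc39a14 and Ptpru in this line had adjusted p of at least 0.435.

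**Figure D3:**
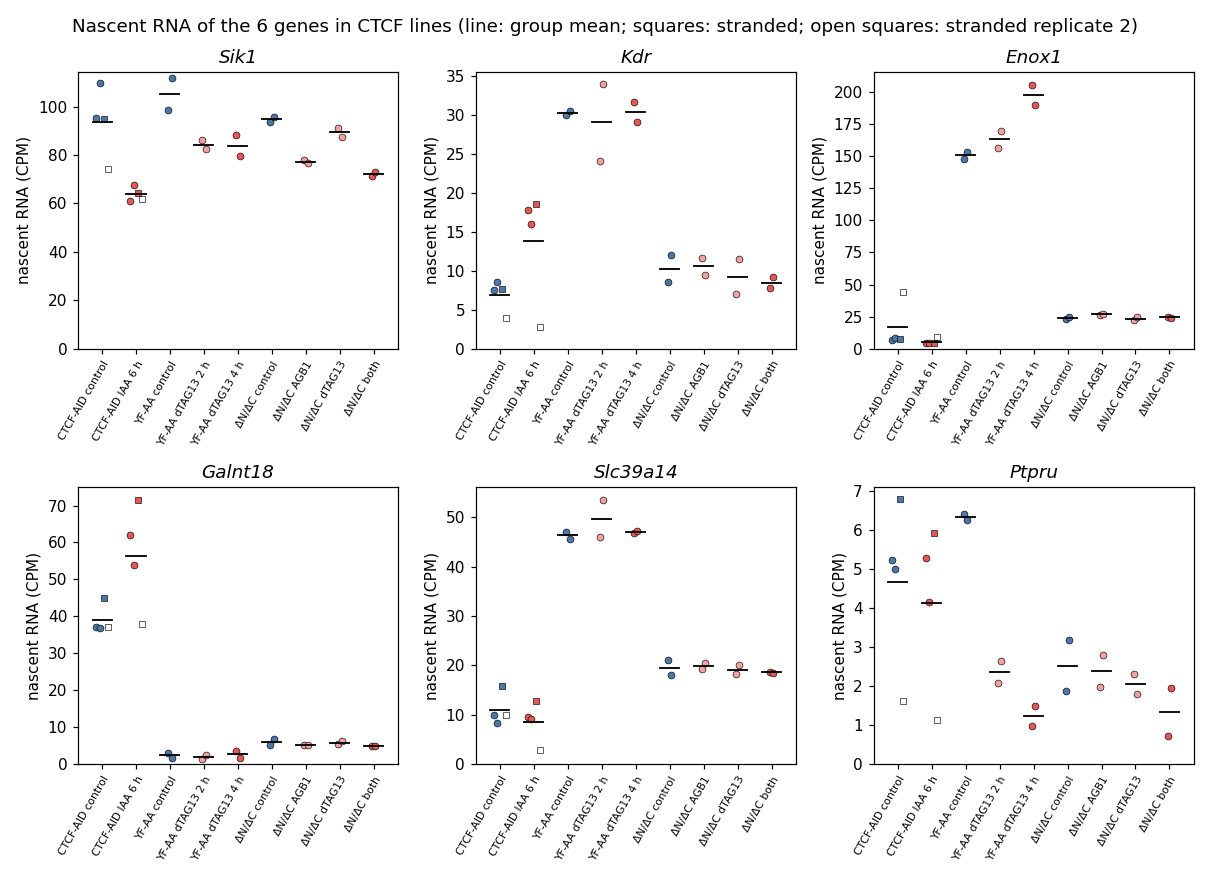
Nascent RNA of each gene (CPM, linear axis from 0) in each library of the CTCF lines, by group on the x axis. Circles and squares are libraries, lines are group means, and squares mark stranded CTCF-AID libraries with replicate 2 open. Sik1 is lower after IAA in CTCF-AID, Ptpru falls with dTAG13 in CTCF-YF-AA, and Enox1 and Slc39a14 start from unlike levels in the lines.

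Baseline levels of the genes differed widely between lines. Enox1 averaged 8.70 CPM in the initial RAD21-AID controls, 129 in the additional ones, 7.42 in unstranded CTCF-AID, 151 in CTCF-YF-AA, 23.9 in the truncation line and 119.8 in NPC. Slc39a14 ranged likewise from 9.09 CPM in unstranded CTCF-AID to 66.0 in the additional controls, and Kdr from 2.20 CPM in the initial controls to 30.3 in CTCF-YF-AA. Galnt18 went the other way between these lines, from 2.31 CPM in CTCF-YF-AA and 2.92 in the additional controls to 37.0 in unstranded CTCF-AID. Sik1 varied least, from 37.1 CPM in NPC to 105 in CTCF-YF-AA. Ptpru was highest in NPC, at 9.65 CPM, and lowest in the truncation line and the additional controls, at 2.52 and 2.54 CPM, whose ranges overlap. Lines differ in laboratory, clone and library batch, which cannot be told apart here.

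Per kb of gene body, Sik1 was by far the highest of the genes, with 3.21 to 9.11 CPM per kb over the control groups, and Galnt18 the lowest in the additional mESC controls, at 0.00946 CPM per kb. In those controls Slc39a14 was at 1.38, Enox1 at 0.229, Kdr at 0.186 and Ptpru at 0.0363 CPM per kb.

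In NPC, RAD21 depletion was followed at 1, 2 and 4 h against 1 pair of control libraries. At 4 h all 6 genes passed, 5 lower (Galnt18, Enox1, Sik1, Kdr and Slc39a14) and 1 higher (Ptpru), where 21.1% of 16148 genes were called lower and 18.4% higher. Their median log2 change was -0.75 against -0.022 for all genes tested. At 2 h 3 passed as lower (9.21% lower and 5.35% higher of 15995) and at 1 h 2 (7.40% and 8.34% of 15860). The times share their controls, and counts at 1 h and after A-485 cover only the first 90 kb of a gene, with controls counted the same way. The 2 and 4 h columns name no limit. Enox1 (565 kb) and Galnt18 (308 kb) exceed the 240 kb to which the methods limit 2 h counts, by polymerase elongation rates. The part of gene length in their changes at 2 and 4 h, and between these times, was not tested.

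Galnt18 was at 19.9 and 22.1 CPM in NPC controls, 9.73 and 11.4 CPM at 2 h and 7.10 and 7.79 CPM at 4 h. Its log2 change was -1.02 (SE 0.13, edgeR adjusted p = 0.000552) at 2 h and -1.51 (SE 0.11, p = 3.13e-12), 2.85-fold lower, at 4 h. This is opposite to its change in the additional mESC experiment, a difference between cell types that was not tested. Over the first 90 kb at 1 h it went from 6.46 and 7.26 to 4.52 and 5.05 CPM (-0.54, SE 0.18, p = 0.0642).

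Enox1 was at 120.02 and 119.6 CPM, then 77.3 and 70.04 CPM at 2 h and 60.1 and 60.3 CPM at 4 h. The log2 change was -0.71 (SE 0.066, edgeR adjusted p = 6.93e-05) and -1.01 (SE 0.047, p = 3.19e-17), 2.01-fold lower, with no overlap of groups. It alone passed between 2 and 4 h (-0.29, SE 0.070, p = 0.0388), where 2.02% of 15942 genes were called lower and 0.828% higher, a call lost without either 4 h library (adjusted p = 0.363 and 0.327). The calls over all genes there rested on single libraries too, with 454 in all, 2951 and 1834 without 2 h library 1 or 2, and 247 and 285 without 4 h library 1 or 2. Over its first 90 kb at 1 h it went from 29.4 and 26.7 to 18.1 and 23.7 CPM (-0.43, SE 0.11, p = 0.0139). That 1 h call was lost without control 1 (p = 0.0829) or IAA library 1 (p = 0.182).

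Sik1 was at 37.0 and 37.2 CPM in controls, 22.1 and 21.03 CPM at 2 h and 21.3 and 22.8 CPM at 4 h. It passed at each time: the log2 change was -0.29 (SE 0.069, edgeR adjusted p = 0.0113) at 1 h, -0.79 (SE 0.088, p = 0.000238) at 2 h and -0.76 (SE 0.075, p = 1.68e-09) at 4 h. At 1 h the counts were 45.4 and 45.3 CPM in controls and 36.9 and 38.2 CPM after IAA, and the call was lost without control 1 (p = 0.0579) or IAA library 1 (p = 0.0588).

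Kdr, at 2.99 and 3.40 CPM in controls, was at 1.71 and 1.81 CPM at 2 h (-0.88, SE 0.26, edgeR adjusted p = 0.0515) and 2.17 and 1.71 CPM at 4 h (-0.73, SE 0.25, p = 0.0246). Slc39a14 changed least, from 45.9 and 48.8 CPM to 39.5 and 41.4 CPM at 2 h (-0.24, p = 0.131) and 44.1 and 39.1 CPM at 4 h (-0.20, SE 0.065, p = 0.0388). The 4 h calls of both were lost without control 2 (adjusted p = 0.127 and 0.199) or IAA library 2 (0.175 and 0.378). Ptpru rose from 9.50 and 9.80 CPM to 13.2 and 11.7 CPM at 4 h (0.35, SE 0.12, p = 0.0122), 1.28-fold, and was at 10.8 and 12.2 CPM at 2 h (0.23, p = 0.244). Without IAA library 1 the 4 h adjusted p was 0.174.

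Inhibition of CBP/p300 for 1 h in NPC lowered 4 of 6 genes, where 35.3% of 16009 genes were called lower and 32.4% higher. All 4 fell at least 2-fold, as did many other genes. By size Enox1, Kdr, Sik1 and Galnt18 ranked only 1960th, 2022nd, 2338th and 2525th lowest of the 16009. Sik1 fell from 45.4 and 45.3 CPM to 19.5 and 18.2 CPM (-1.41, SE 0.089, edgeR adjusted p = 2.72e-09) and Enox1 from 29.4 and 26.7 to 10.7 and 9.02 CPM (-1.66, SE 0.12, p = 1.76e-08), both over at most the first 90 kb. Kdr fell from 3.66 and 4.13 to 1.29 and 1.504 CPM (-1.62, SE 0.28, p = 0.000189) and Galnt18 from 6.46 and 7.26 to 2.71 and 3.43 CPM (-1.30, SE 0.21, p = 0.000128). Slc39a14, from 56.3 and 59.5 to 52.4 and 55.5 CPM (-0.25, p = 0.132), and Ptpru, from 11.7 and 11.9 to 10.7 and 9.62 CPM (-0.37, p = 0.132), did not pass. The median change of expressed genes, set to 0 here, was 0.12 (log2) on the uncentred scale in this comparison. The p-values test the uncentred changes, which for the 6 genes were smaller in size than those printed. A-485 and 1 h IAA were measured against the same control libraries.

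**Figure D4:**
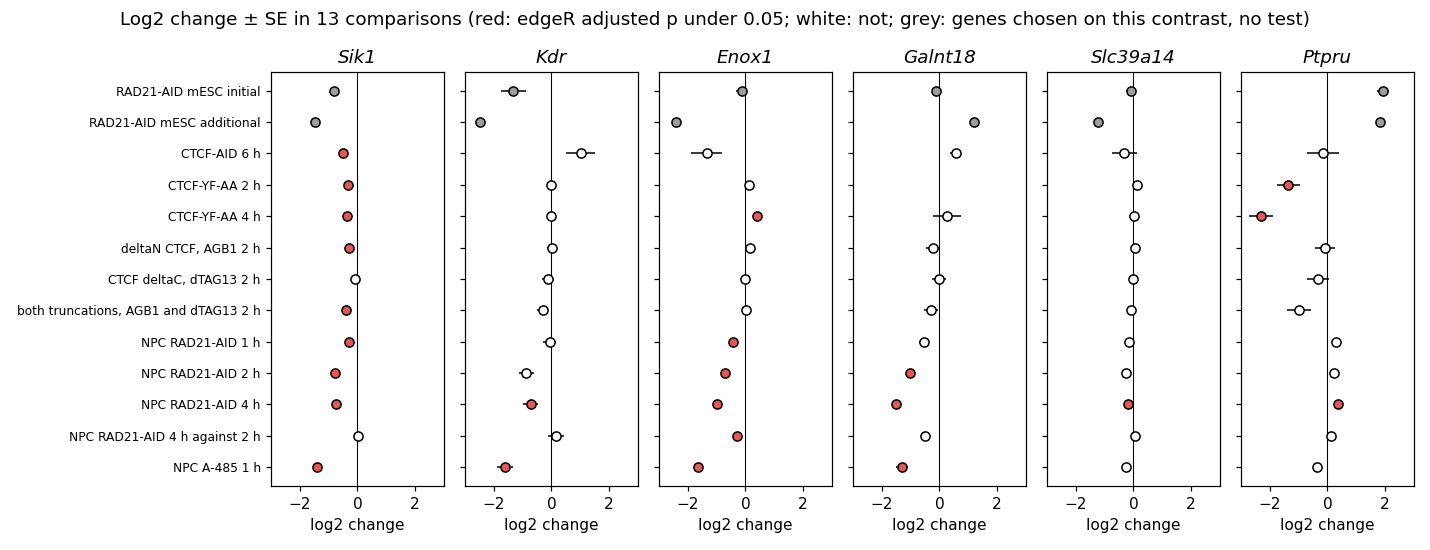
Log2 change (x axis, treated over control, bars are SE) of each gene in each of 13 comparisons (rows). Red points passed (edgeR adjusted p under 0.05), white ones did not, and grey ones are the mESC contrasts that chose the genes and carry no test. Sik1 lies below 0 in each comparison of treated with control cells, Galnt18 above 0 in the additional mESC experiment and below 0 in NPC, and Ptpru below 0 in CTCF-YF-AA.

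Genes near the 6 were taken as those that start within 500 kb, 82 rows of the table, in which a few symbols have more than 1 transcript. In the additional mESC experiment 16 of 58 tested were lower and 20 higher, 62.1% against 58.3% of all genes, so their share was near that of genes at large. In CTCF-AID 1 was lower, Ccdc122, and 2 were higher of 59 (5.08% against 3.58%). The 2 were Tmem165 (0.54, edgeR adjusted p = 0.0418) and Trnau1ap (0.49, p = 0.0315), under 1.5-fold and named after their values were seen. With the pairs as a block 6 of 59 were lower and 12 higher, where 15.3% of all genes were called lower and 13.9% higher. In NPC at 4 h 11 were lower and 11 higher of 54 (40.7% against 39.5%).

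Few neighbours changed by 1.5-fold or more. In the additional mESC experiment Pde9a, a cGMP phosphodiesterase gene 470 kb downstream of Sik1, fell from 19.9 ± 1.71 to 10.9 ± 0.476 CPM (SD, n = 12 a group; log2 change -0.86, edgeR adjusted p = 2.11e-22). Hr, a corepressor gene 203 kb upstream of Slc39a14, fell from 6.24 to 3.76 CPM (-0.71, p = 8.40e-11). In CTCF-AID Ccdc122, 120.0 kb upstream of Enox1, fell from 5.09 to 1.97 CPM (-1.34, SE 0.23, p = 0.0167, and p = 0.000281 under the block), while it was at 15.7 and 16.1 CPM in the additional mESC groups (0.05, p = 0.473). Under the block Hr (-0.98, p = 0.00702), Mical2 (1.67, p = 0.000768), Lacc1 (0.84, p = 0.00573) and Oprd1 (0.93, p = 0.0166) also passed at 1.5-fold or more in CTCF-AID, and Pde9a at just under it (-0.58, p = 0.000363). Their edgeR adjusted p without the block were 0.0702, 0.160, 0.269, 0.179 and 0.192. Lacc1, named with Oprd1 after their values were seen, starts beside Ccdc122 near Enox1 and lay on the other side of 0, and Oprd1 starts 306 kb upstream of Ptpru.

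In NPC at 4 h Kit, the stem cell factor receptor gene 404 kb downstream of Kdr, fell from 14.5 to 4.25 CPM (-1.78, SE 0.14, edgeR adjusted p = 9.86e-12, n = 2 a group). In the additional mESC experiment the same gene was at 614 and 663 CPM (0.13, p = 4.61e-07). Mical2, an actin-oxidizing enzyme gene 446 kb upstream of Galnt18, fell in NPC from 63.4 to 25.5 CPM (-1.33, p = 5.63e-17) and was at 1.47 and 1.41 CPM in mESC (-0.05, p = 0.733). Near Slc39a14, Egr3, an immediate early gene 274 kb downstream, rose from 14.96 to 29.1 CPM (0.94, p = 7.48e-11) and Reep4 rose from 12.4 to 20.4 CPM (0.69, p = 2.07e-06). Cbs, 219 kb downstream of Sik1, fell from 10.0 to 6.73 CPM (-0.59, p = 0.00212).

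The nearest tested genes changed less than the 6 in the additional mESC experiment. As the 6 are taken as chosen for their changes there, this difference in size is no result about the neighbours. Mecr, which starts 5.18 kb upstream of Ptpru, rose from 31.7 to 36.6 CPM (0.23, edgeR adjusted p = 1.36e-07) against 3.59-fold for Ptpru. On the sides of Sik1 they were Rrp1b (-0.23, p = 1.07e-15) and AC166654.1 (-0.11, p = 0.345), and for Galnt18 Usp47 (-0.05, p = 0.0114). Beside Slc39a14 they were Piwil2 (0.03, p = 0.614) and Ppp3cc (0.12, p = 0.0989), the latter lower in NPC (-0.50, p = 0.000267). Upstream of Kdr it was Srd5a3, 162 kb away, which rose where Kdr was lower (0.30, p = 4.00e-07). Gm32780, nearer to Kdr, was tested in CTCF-AID alone of these 3 comparisons (-0.21, p = 0.846).

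**Figure D5:**
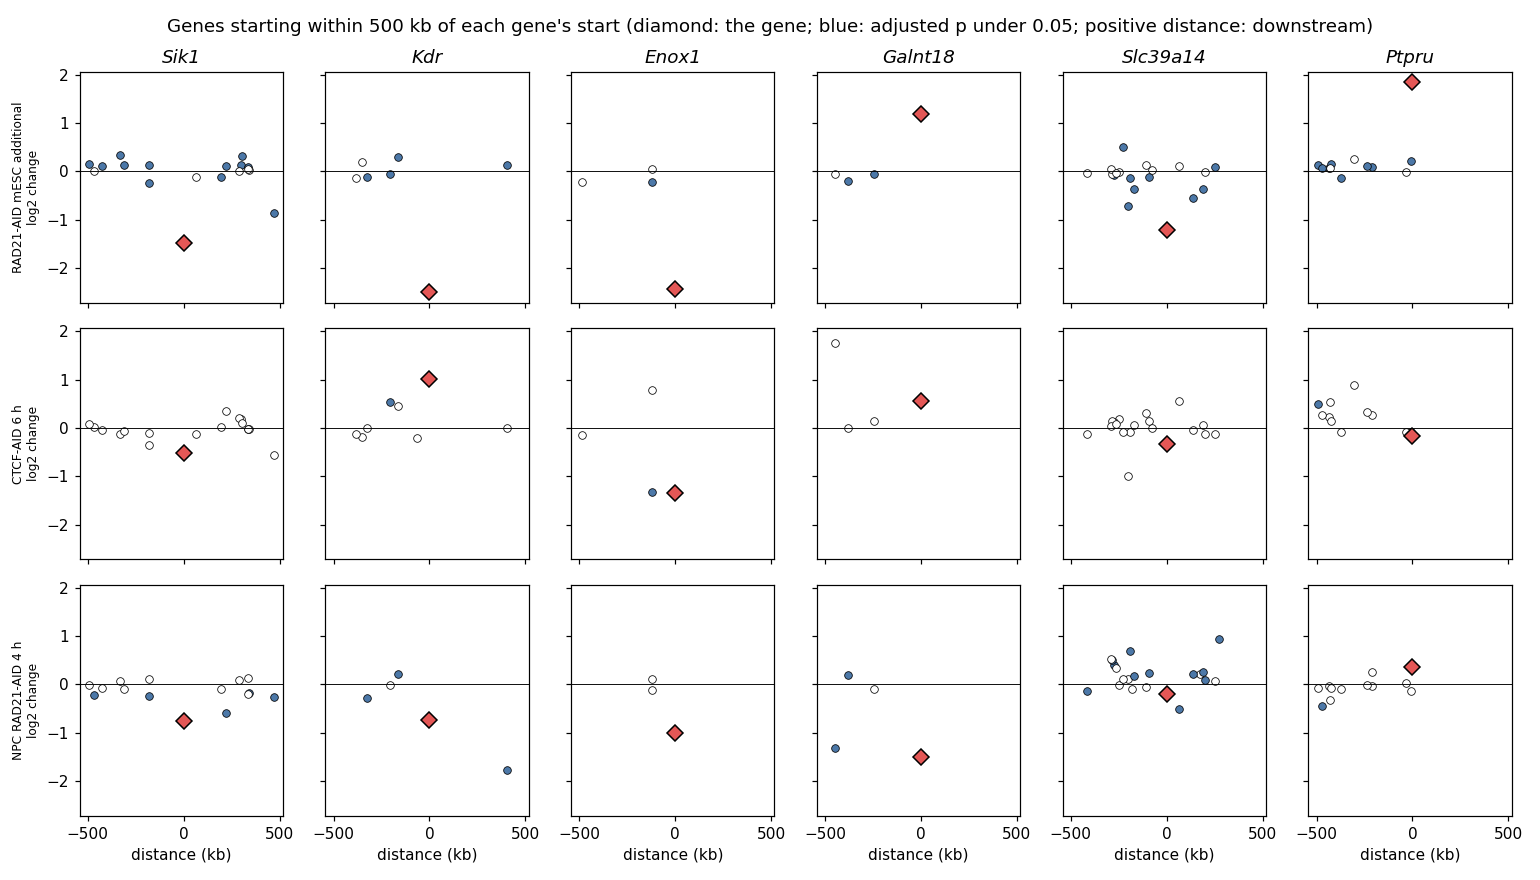
Log2 change (y axis) of genes that start within 500 kb of each of the 6 genes against the distance of their starts (x axis, kb, positive is downstream), in the additional mESC, CTCF-AID and NPC 4 h comparisons (rows). Diamonds are the 6 genes, blue circles other genes with adjusted p under 0.05 in the fit without the block, and open circles the rest. Around Enox1 and Ptpru the neighbours lie within 0.26 of 0 in the additional mESC experiment but not in CTCF-AID, where Ccdc122 is at -1.34, while Kit beside Kdr and Mical2 beside Galnt18 fall in NPC.

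The families of the 6 genes were counted without the genes themselves, on lists chosen with earlier results known. Shares over all genes, against which each count below is set, were 27.4% lower and 31.0% higher in the additional mESC experiment, 21.1% and 18.4% in NPC at 4 h, and 2.01% and 1.57% in CTCF-AID, or 15.3% and 13.9% under the block. Of 13 other polypeptide GalNAc-transferases tested in the additional mESC experiment 3 were lower and 5 higher, and of 14 in NPC at 4 h 9 were lower and 0 higher, with a median log2 change of -0.22 against -0.022 for all genes. Galnt13 fell there from 18.0 to 8.35 CPM (-1.12, edgeR adjusted p = 3.51e-09), Galnt17 from 71.6 to 44.3 CPM (-0.71, p = 1.09e-11), Galnt14 from 4.48 to 2.75 CPM (-0.71, p = 0.0112) and Galnt9 from 1.97 to 1.13 CPM (-0.82, p = 0.0482). In mESC Galnt17 rose from 24.95 to 31.4 CPM (0.36, p = 2.95e-09). None of 15 passed in CTCF-AID, and 0 were lower and 3 higher under the block.

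Of the R2B phosphatases and catenins, 4 of 7 were lower and 2 higher in the additional mESC experiment, and 4 were lower and 1 higher in NPC (median -0.57), against shares of 27.4% and 31.0%, and 21.1% and 18.4%, over all genes. Ptprm, Ptprt and Ptprk, the closest relatives of Ptpru, all fell in NPC, from 274 to 143 CPM (-0.96, edgeR adjusted p = 8.57e-19), 73.9 to 41.8 CPM (-0.84, p = 1.30e-12) and 186 to 114 CPM (-0.72, p = 1.29e-14), where Ptpru rose. In the additional mESC experiment Ptprm rose (0.47, p = 7.50e-11) and Ptprk fell (-0.44, p = 4.17e-19). In CTCF-AID 0 of 7 passed, and 2 were lower and 2 higher under the block.

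Around Kdr, VEGF ligands, coreceptors and related receptor kinases had 5 lower and 5 higher of 13 in mESC and 5 and 4 of 14 in NPC, against 27.4% and 31.0%, and 21.1% and 18.4%, of all genes. Nrp1, a VEGF coreceptor, fell in NPC from 288 to 96.6 CPM (-1.59, SE 0.040, edgeR adjusted p = 5.45e-24), Pgf, a VEGF-family ligand, from 14.8 to 7.78 CPM (-0.94, p = 3.51e-07), and Kit as given above. Pdgfra rose in mESC from 4.34 to 9.34 CPM (1.11, p = 4.16e-20). In CTCF-AID 1 of 12 was lower, the ligand gene Vegfc (-0.88, edgeR adjusted p = 0.0206), and 2 were lower and 2 higher under the block, Pdgfra among the latter (p = 0.000318).

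Of 19 salt-inducible kinases, CREB factors and their partners 8 were lower and 6 higher in mESC and 4 and 5 in NPC, beside the same shares of all genes. Nr4a2, a CREB target, fell in mESC from 16.3 to 10.4 CPM (-0.62, edgeR adjusted p = 5.53e-14), Mark4 rose there (0.43, p = 2.07e-22), and in NPC Hdac5 rose (0.53, p = 2.40e-11) and Mark1 fell (-0.50, p = 1.50e-07). None passed in CTCF-AID, and 2 were lower and 5 higher under the block. Of the SLC39 transporters 2 of 10 were lower and 3 higher in mESC, 2 and 3 of 12 in NPC, and 0 of 11 passed in CTCF-AID with or without the block. Slc39a11 (-0.44, p = 7.83e-08) and Slc39a8 (-0.44, p = 0.0214) fell in NPC, Slc39a13 rose there (0.34, p = 0.000345), and Slc39a3 rose in mESC (0.28, p = 0.00263). Enox2, the other ecto-NOX gene, rose in mESC (0.22, p = 2.87e-05), fell in NPC (-0.39, p = 5.55e-05) and in CTCF-AID passed under the block (adjusted p = 0.0024, against 0.457 without it).

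Patterns over the comparisons were set beside those of 12167 other genes tested in all 13, or 12247 in 12 for Galnt18. Pearson's r of log2 changes was used, as a description, since comparisons share control libraries. The mESC contrasts taken as choosing the genes are among the comparisons and weigh in each r. A high r does not mean a change of like size. In the additional mESC experiment Kdr changed by -2.50, and Kmt2c, Baz1a and Rc3h1, named below, by -0.73, -0.43 and -0.20. Most like Sik1 were Fam49a (0.901), Ets2 (0.901) and Actn4 (0.898). Most like Kdr were Kmt2c (0.909), Baz1a (0.908) and Rc3h1 (0.883), and most like Enox1 were Trim44 (0.939), AC133601.1 (0.917) and Adam23 (0.893). For Galnt18 they were Gm1043 (0.953), Zfp148 (0.953) and Fnbp1 (0.938). Slc39a14 was followed by Nfkb1 (0.908), by Enox1 itself (0.870) and by Snapc3 (0.870), and Ptpru by Mthfsd (0.929), 2610002M06Rik (0.924) and Mfsd4b4 (0.909). The single gene pair within the 6 on these lists was Slc39a14 and Enox1, whose initial and additional mESC values, given above, chose them.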

How the data were processed

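The authors trimmed reads with Cutadapt, aligned them to mm10 with bwa, kept a mapping quality of at least 10 (SAMtools 1.4), removed rRNA and tRNA reads and deposited HTSeq counts per representative transcript over the gene body. Counts of 6 columns (NPC control, IAA 1 h, A-485) stop at 90 kb. The methods name 240 kb for 2 h treatments, which the columns do not state. The strand used in counting is not given in the sources used here, and 656 symbols, none of them a member, have more than 1 row.

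From these counts each comparison was fitted on its own with edgeR 4.0.16 (R 4.3.3, quasi-likelihood, two-sided, TMM, Benjamini-Hochberg over all genes with a mean count above 20 in 1 group), with a term for stranded against unstranded libraries in CTCF-AID. A gene passed with an adjusted p under 0.05. Log2 changes were centred on the median of genes above 15 TPM. The centring came after the test, so p-values are of the uncentred changes. Pair ratios used a prior count of 0.5. CPM of whole bodies were scaled over 56 columns, and 90 kb columns separately. Alternatives were DESeq2 1.42.0, RLE factors, no filter, no centring, the replicate block and left-out libraries. Leaving out the centring cannot alter an adjusted p, so it is no check on which genes passed. In CTCF-AID all 4 same-numbered pairs deviated together (correlations 0.470 to 0.804), so the blocked value stands beside its results. Fits were tested on simulated data of independent libraries without effects of pair or library type. This does not check them under the shared deviations seen in CTCF-AID. Named were the members, the nearest tested gene on each side, neighbours within 500 kb that passed at 1.5-fold or more, up to 4 passing genes a family and the 3 most alike genes, besides Cdh5, Nanog and Pou5f1 among the markers. The members and lists were chosen with earlier results of these data known.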

Additional observations from a re-analysis of the deposited data

Results flagged for a closer look

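In the CTCF-AID line, 4 values of the 6 genes stood apart from the other libraries of their group by Dixon's criterion, of 12 groups of 4 libraries tested. Chance gives such a value in about 1 of 20 groups of independent, like libraries. These groups share their libraries between genes and mix unstranded with stranded ones, so 4 of 12 cannot be set against that rate. Kdr was at 2.83 CPM in stranded IAA library 2, against 16.1 to 18.6 CPM in the other 3. Enox1 was at 44.2 CPM in stranded control 2, against 6.79 to 8.05 CPM, and at 8.87 CPM in stranded IAA library 2, against 4.07 to 4.59 CPM. Galnt18 was at 45.1 CPM in stranded control 1, against 36.8 to 37.2 CPM. Of these, 3 belong to the stranded pair numbered 2.

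Galnt18 moved in opposite directions in contrasts of RAD21 depletion. Both initial mESC pairs were slightly lower (mean log2 ratio -0.12) and all 12 additional pairs higher, and in NPC at 4 h both pairs were lower (-1.50). These differences between experiments and cell types were not tested.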

How the results depend on the processing

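Of the 6 genes, the number that passed stayed within 1.5 times of that reported except in what follows. In CTCF-AID it was 1, and 4 with the replicate block, 3 in unstranded libraries alone (Sik1, Kdr and Galnt18), 0 in stranded libraries alone, 4 without the stranded pair 2 (chosen after seeing the data) and 0 to 2 with 1 library left out. With DESeq2 it was 0 in CTCF-YF-AA at 2 h, where 2 of the genes had no adjusted p, 0 after AGB1, 0 in NPC at 1 h, 3 in NPC at 4 h (Kdr, Slc39a14 and Ptpru then had adjusted p of 0.168, 0.214 and 0.111) and 0 for 4 h against 2 h. It was 1 with the replicate block in CTCF-YF-AA at 2 h (Ptpru, adjusted p = 0.0666), and 2 without a filter on low counts for 4 h against 2 h. Leaving out 1 library gave 0 to 1 in CTCF-YF-AA at 2 h, 0 to 1 after AGB1, 1 to 2 after both agents, 0 to 3 in NPC at 1 h, 3 to 5 at 2 h and 0 to 2 for 4 h against 2 h. No direction of a call reversed, and the cause of these shifts was not tested. After RAD21 depletion in mESC the genes past 1.3-fold, 3 in the initial and 6 in the additional experiment, kept that number within 1.5 times in every alternative run.

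Outside CTCF-AID same-numbered libraries share only a number (3 of 12 additional mESC pairs correlated above 0.1). In NPC the 2 pairs correlated at 0.199 at 2 h and 0.107 for A-485, too few to pair them. There the block also brought Kdr past the threshold in NPC at 2 h (adjusted p = 0.0244) and changed no other call on the 6 genes. Over all genes it moved the calls, lower and higher, from 794 and 516 to 525 and 337 in initial mESC, from 1473 and 855 to 2053 and 1626 in NPC at 2 h, from 322 and 132 to 577 and 305 for 4 h against 2 h, from 1 and 10 to 5 and 16 after dTAG13 in the truncation line, and from 314 and 245 to 2386 and 2168 in CTCF-AID. The crossed pairing, chosen after seeing the data, gave 1136 and 739 in initial mESC and 1690 and 1806 in NPC at 1 h, against 1173 and 1323.

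DESeq2 called 404 and 128 in initial mESC, 569 and 536 in CTCF-AID, 197 and 47 (against 378 and 174) in CTCF-YF-AA at 2 h, 331 in both directions (against 713) at 4 h, 114 and 40 after AGB1 (against 203 and 89), 361 in both directions after both agents (against 907), 488 and 615 in NPC at 1 h and 2397 and 1683 at 4 h (against 3412 and 2971). Leaving out 1 library gave totals of 352 to 2039 calls in initial mESC (against 1310), the highest without control 1 and the lowest without IAA library 2, 209 to 807 in CTCF-AID (against 559), the lowest without unstranded control 1 and the highest without stranded IAA library 2, and 1163 to 4852 in NPC at 2 h (against 2328), the lowest without control 1 and the highest without IAA library 1. It also gave 455 and 449 in CTCF-YF-AA at 4 h without treated library 1 or 2, 567 to 600 calls after both agents without control 1, control 2 or treated library 1, and 1645 in NPC at 1 h without control 1. Without a filter 672 and 352 were called for 4 h against 2 h, and 3 and 14 after dTAG13. With 2 libraries a group and under 30 reads of Kdr in initial mESC, and 7 to 64 of Ptpru in CTCF-YF-AA, depth limits these genes most.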
